A study of Homo sapiens with 14 samples.

Results

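The comparison described here set PANC-1 cells kept for 12 h in the vehicle DMSO against PANC-1 cells at the 0 h start of the same experiment. It was chosen by library label and holds 4 of the 14 libraries of the study, namely replicates 1 and 2 of DMSO at 12 h and replicates 1 and 2 of DMSO at 0 h. PANC-1 is an established human pancreatic cancer line. The cells grew as a monolayer in Dulbecco's modified Eagle's medium with fetal bovine serum and were at passage 3 to 5. The 12 h cells were harvested 12 h after DMSO was given, and the 0 h cells carry the label of DMSO for 0 h. The sources used here do not give the fraction of DMSO, the cell density or any change of medium. The other 10 libraries were DMSO at 3 and 24 h and proanthocyanidins, a mixture of plant polyphenols, at 20 µg per ml for 3, 12 and 24 h, each with 2 replicates. They entered the statistical fit, where all 7 groups shared the estimate of the spread. With no culture left without DMSO for 12 h among the libraries, exposure to DMSO and 12 h of further culture cannot be told apart. Nothing in the labels says that replicates came from separate cultures, so a p-value here reflects how far these libraries differ among themselves, which may be technical.

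The libraries held 26403984 and 31076409 reads in genes at 12 h, against 27000477 and 35213154 at 0 h. Levels are given as CPM, which are reads per 1000000 reads of a library size that edgeR corrects with a trimmed mean of M-values (TMM). Changes are log2 differences of 12 h minus 0 h, given ± SE, and n = 2 per group throughout. A gene was called changed at an adjusted p below 0.05 in edgeR's quasi-likelihood test with Benjamini-Hochberg adjustment over all 15181 genes that passed a filter on low counts. The Spearman correlation of replicate libraries across genes was 0.996 at 12 h and 0.994 at 0 h. The cells carried the epithelial keratins of a pancreatic duct-type cancer line together with vimentin. KRT8 stood at 2344 and 2615 CPM at 12 h and 2456 and 2724 CPM at 0 h, and KRT18 at 2039 and 2129.9 CPM at 12 h and 2319 and 2542 CPM at 0 h. KRT19 stood at 606 and 597 CPM at 12 h and 549 and 598 CPM at 0 h, and VIM at 2251 and 2226 CPM at 12 h and 1877 and 1976 CPM at 0 h. None of the 8 tested members of a list of PANC-1 identity genes was called in the fit of all 14 libraries. With DESeq2 1 was called higher, as was 1 with the 8 DMSO libraries alone and 1 with correction for GC content and length. The last 2 of these fits called 6.74% and 1.77% of all genes higher. In the fit of all 14 libraries the log2 change of KRT8 was -0.063 ± 0.164. Markers of acinar cells summed to at most 0.142 CPM in any of the 4 libraries, and those of islet cells to at most 0.424 CPM. Endothelial markers summed to 0.92 and 1.39 CPM at 12 h, against 1.22 and 0.85 CPM at 0 h. Leukocyte markers summed to 42.6 and 46.9 CPM at 12 h, against 39.0 and 48.6 CPM at 0 h, nearly all of it from CD68, a lysosomal protein gene of macrophages that other cells also express, at 40.0 and 43.8 CPM at 12 h and 37.3 and 46.2 CPM at 0 h. PTPRC, the pan-leukocyte marker CD45, had at most 3 reads, and 0 of these markers were called in edgeR.

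Several regulators with well-known targets bear on what follows. NF-kB factors sit in the cytoplasm bound to inhibitor proteins such as IkB alpha, the product of NFKBIA. When released they switch on chemokine genes, adhesion molecules and their own inhibitors, so the pathway damps itself. In tumour cells of the pancreas NF-kB is often active without an added stimulus, and chemokines such as CXCL8 and CCL2 draw neutrophils and monocytes. The aryl hydrocarbon receptor is a ligand-activated factor that drives CYP1A1 and CYP1B1, and SREBP2 drives the enzymes of sterol synthesis when membranes run short of cholesterol.

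In the fit of all 14 libraries most genes called between 12 and 0 h were lower at 12 h. Over all 15181 genes tested the changes were balanced, with a median of -0.0049 and 7663 genes below 0. In all 221 genes (1.46%) were called, 49 higher (0.323%) and 172 lower (1.13%). A change of 2-fold or more was seen in 12 of the higher and 77 of the lower genes. Among genes with a mean of at least 2 CPM over the 4 libraries, the largest falls were in the iron-binding secreted lipocalin LCN2, in chemokines and in CYP1A1, and the largest rises were in the GTPase-activating protein gene ARHGAP22, the membrane protein gene CMTM8 and the zinc finger gene ZNF100. DESeq2 called 679 genes, 210 higher and 469 lower. When the spread was taken from the 8 DMSO libraries alone edgeR called 2068 genes (14%), 996 higher (6.74%) and 1072 lower (7.26%). With offsets that remove each library's trend on GC content and on length of the transcript, the calls numbered 829 (5.5%), of which 267 were higher (1.77%) and 562 lower (3.73%). On the deposited RPKM values, limma on log2(RPKM + 1) called 203 genes, 78 higher and 125 lower.

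**Figure D1:**
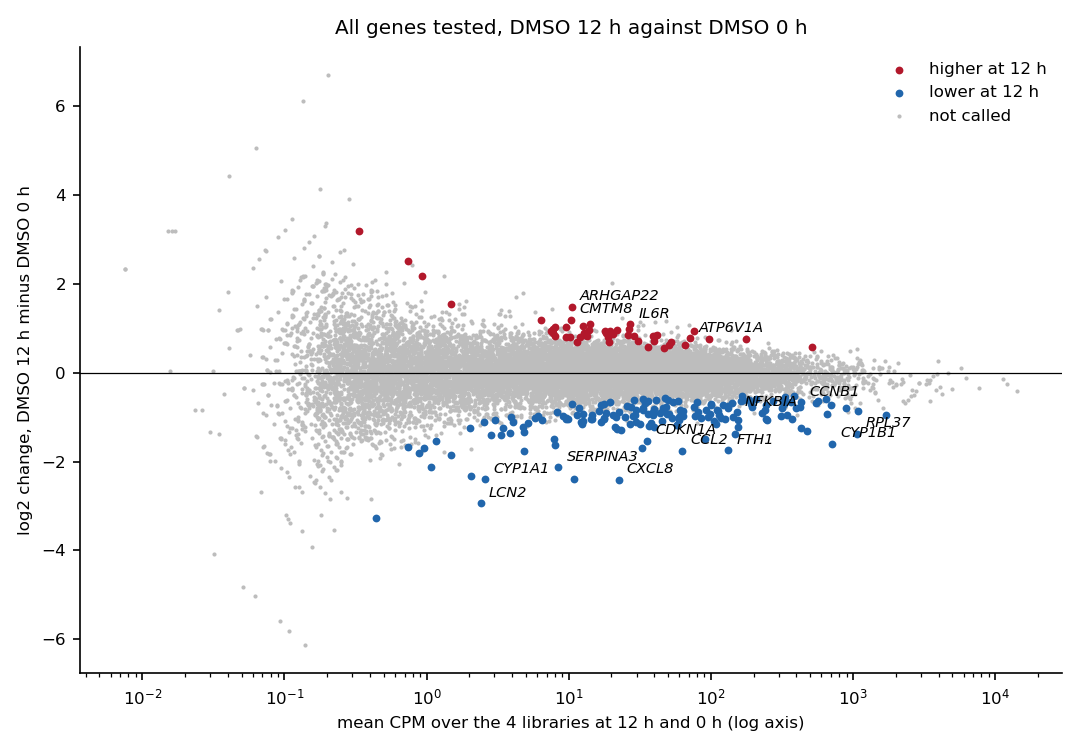
Log2 change of DMSO 12 h minus DMSO 0 h (vertical axis) against the mean level over the 4 libraries (horizontal log axis, CPM) for all 15181 genes tested. Red points are the 49 genes called higher at 12 h and blue points the 172 called lower. Falls reach further from 0 than rises at moderate and high levels, with LCN2 at -2.93 and ARHGAP22 at 1.48.

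Gene positions are those of GENCODE 29 on GRCh38. Cultures were measured in bulk, so fewer cells that express a gene and less RNA per cell cannot be told apart. Chemokine genes were lower at 12 h, by up to 5.3-fold for CXCL8, the neutrophil attractant interleukin-8 (chromosome 4, 73740506 to 73743716, plus strand). CXCL8 had 7.12 and 7.09 CPM at 12 h, against 39.8 and 35.6 CPM at 0 h. The 12 h pair lay close together and far below both 0 h libraries, a log2 change of -2.41 ± 0.268 (adjusted p = 0.00111). CCL2, which attracts monocytes, had 26.4 and 30.7 CPM at 12 h, against 91.4 and 101 CPM at 0 h and fell by 1.75 ± 0.15 on the log2 scale (adjusted p = 0.000231). CXCL1, another neutrophil attractant, had 46.4 and 49.3 CPM at 12 h, against 140.4 and 127 CPM at 0 h and fell by 1.48 ± 0.189 (adjusted p = 0.00227). Again both 12 h libraries stood below both 0 h libraries. CXCL2, close in sequence to CXCL1, had 2.88 and 2.58 CPM at 12 h, against 6.63 and 7.22 CPM at 0 h (-1.35 ± 0.252, adjusted p = 0.0215). CCL20, the ligand of CCR6, was weakly expressed, at 0.753 and 0.606 CPM at 12 h, against 3.76 and 3.09 CPM at 0 h, and was called lower (-2.33 ± 0.435, adjusted p = 0.0212). CX3CL1 (fractalkine), a membrane-bound chemokine of the CX3C class, had 4.28 and 2.67 CPM at 12 h, against 16.7 and 19.7 CPM at 0 h and fell by 2.39 ± 0.24 (adjusted p = 0.000552). As in all 172 genes called lower, the groups did not overlap in these genes. CXCL3 (-1.79 ± 0.817, adjusted p = 0.276) and CXCL5 (-0.36 ± 0.259, adjusted p = 0.497) did not pass. CXCL1, CXCL2 and CXCL3 are near copies of each other, and the sources used here do not say how reads shared between them were assigned. CCL2 and CX3CL1 kept their calls whichever of the 4 libraries was left out. CXCL8 missed without 12 h replicate 1 (adjusted p = 0.0568), CXCL1 without 12 h replicate 1 (adjusted p = 0.12) or 12 h replicate 2 (adjusted p = 0.0691), and CXCL2 and CCL20 whichever library was left out (adjusted p = 0.0822 to 0.272 and 0.103 to 0.269).

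The genes by which NF-kB limits itself, and other genes it is known to drive, were also lower. NFKBIA had 104 and 108 CPM at 12 h, against 187 and 208 CPM at 0 h and fell by 0.89 ± 0.121 (adjusted p = 0.00371). NFKBIE, which encodes a further IkB protein and was picked after its values were seen, had 32.7 and 34.9 CPM at 12 h, against 60.9 and 68.4 CPM at 0 h (-0.94 ± 0.185, adjusted p = 0.0283). TNFAIP3 encodes A20, a ubiquitin-editing brake on the pathway, and had 8.08 and 9.06 CPM at 12 h, against 15.5 and 14.3 CPM at 0 h (-0.80 ± 0.178, adjusted p = 0.0466). In each of these inhibitor genes both 12 h libraries were below both 0 h libraries, as in all 172 genes called lower. ICAM1, the adhesion molecule that leukocytes bind, had 207 and 221 CPM at 12 h, against 318 and 349 CPM at 0 h and fell by 0.64 ± 0.135 (adjusted p = 0.0381). The cytokine gene LIF had 39.9 and 43.6 CPM at 12 h, against 63.1 and 69.9 CPM at 0 h (-0.67 ± 0.142, adjusted p = 0.0381). The genes of the factors themselves did not pass: RELB stood at -0.83 ± 0.204 (adjusted p = 0.0625), NFKB2 at -0.23 ± 0.14 (adjusted p = 0.424) and NFKB1 at -0.18 ± 0.132 (adjusted p = 0.515). Of the 20 genes in the list of NF-kB and inflammation genes, 16 passed the filter. Among these, 9 were called lower, against 1.13% of all genes tested, and 0 higher. The median of those 16 was -0.86, against -0.0049 over all genes tested, and in all 16 both 12 h libraries lay below both 0 h libraries, as they did in 30.7% of all genes. The members that did not pass the filter include IL6 with 0 reads in each of the 4 libraries and TNF with 1 to 8 reads. With the 8 DMSO libraries alone 12 of the 16 were lower, and with the correction for GC content and length 11. The shares of all genes called lower in these fits were 7.26% and 3.73%. NFKBIA kept its call without 0 h replicate 1 only (adjusted p = 0.0173 then, and up to 0.11 in the other refits). NFKBIE, TNFAIP3, ICAM1 and LIF lost theirs whichever library was left out, with adjusted p of 0.0867 to 0.355, 0.178 to 0.429, 0.0892 to 0.407 and 0.103 to 0.413.

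Other genes that NF-kB is known to drive were chosen from the called genes after their values were seen. CSF1, the growth factor of macrophages, had 35.8 and 34.9 CPM at 12 h, against 75.6 and 84.7 CPM at 0 h and fell by 1.18 ± 0.133 (adjusted p = 0.00111). ZC3H12A, an RNase that degrades cytokine transcripts, had 14.2 and 17.6 CPM at 12 h, against 27.9 and 30.4 CPM at 0 h (-0.88 ± 0.177, adjusted p = 0.0329). The interferon regulatory factor gene IRF1 had 32.6 and 34.1 CPM at 12 h, against 57.0 and 59.6 CPM at 0 h (-0.81 ± 0.15, adjusted p = 0.0212). Each again showed lower values in both 12 h libraries. TNFAIP2 (-0.61 ± 0.139, adjusted p = 0.048) and SOD2, the manganese superoxide dismutase of mitochondria (-0.52 ± 0.12, adjusted p = 0.0488), fell by less than 2-fold. CSF1 missed without 12 h replicate 1 (adjusted p = 0.0509) and kept its call in the other 3 refits. ZC3H12A, IRF1, TNFAIP2 and SOD2 missed whichever library was left out, with adjusted p of 0.0939 to 0.389, 0.0822 to 0.283, 0.143 to 0.404 and 0.209 to 0.387. IRF1 was the 1 gene called among 15 tested interferon response genes, of which 4 were lower with the 8 DMSO libraries alone. That fit called 7.26% of all genes lower.

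Promoters of the NF-kB list members are shown so that the letters before their starts of transcription can be read beside the values. The 250 bases before the start (RefSeq, GRCh38.p14) were searched on both strands for GGANNTTCC, a core of known NF-kB sites, where N is any base; the motif was chosen after the values were seen. It occurred in 10 of the 13 tested list members with an entry in the promoter table, in 6 of the 7 of them that were called lower, and in 1350 of all 35116 promoter windows (3.84%). The list is made of known NF-kB targets, so this share follows from how the members were chosen and is no independent evidence about them. CCL20, BIRC3 and IL1B had no match in this window. RefSeq starts of transcription can differ from the gene ends of GENCODE. A match is a description of letters and not a site shown to be bound. The windows of 5 genes are printed in their gene's direction, with matches on either strand in capitals: CXCL8 (chr4:73740319-73740568, plus strand), CXCL1 (chr4:73869143-73869392, plus strand), CXCL2 (chr4:74099196-74099445, minus strand), NFKBIA (chr14:35404750-35404999, minus strand) and ICAM1 (chr19:10270870-10271119, plus strand).
CXCL8: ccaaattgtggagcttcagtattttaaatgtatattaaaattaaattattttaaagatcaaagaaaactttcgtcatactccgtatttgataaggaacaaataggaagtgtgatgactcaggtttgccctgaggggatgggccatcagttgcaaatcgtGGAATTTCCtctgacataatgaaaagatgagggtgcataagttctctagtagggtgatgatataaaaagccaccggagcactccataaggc
CXCL1: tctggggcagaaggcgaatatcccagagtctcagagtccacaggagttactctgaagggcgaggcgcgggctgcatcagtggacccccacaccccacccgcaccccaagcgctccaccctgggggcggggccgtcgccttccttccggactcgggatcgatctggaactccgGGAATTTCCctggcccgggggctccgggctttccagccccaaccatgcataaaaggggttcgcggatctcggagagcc
CXCL2: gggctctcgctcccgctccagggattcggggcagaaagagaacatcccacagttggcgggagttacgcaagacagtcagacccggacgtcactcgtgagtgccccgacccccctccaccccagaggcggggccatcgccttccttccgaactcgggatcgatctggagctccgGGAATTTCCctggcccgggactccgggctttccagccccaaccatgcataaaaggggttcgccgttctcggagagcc
NFKBIA: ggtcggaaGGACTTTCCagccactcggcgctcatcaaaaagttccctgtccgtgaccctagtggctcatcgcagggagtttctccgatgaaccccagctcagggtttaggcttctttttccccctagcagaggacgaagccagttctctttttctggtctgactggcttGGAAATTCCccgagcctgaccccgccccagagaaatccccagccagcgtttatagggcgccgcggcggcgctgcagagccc
ICAM1: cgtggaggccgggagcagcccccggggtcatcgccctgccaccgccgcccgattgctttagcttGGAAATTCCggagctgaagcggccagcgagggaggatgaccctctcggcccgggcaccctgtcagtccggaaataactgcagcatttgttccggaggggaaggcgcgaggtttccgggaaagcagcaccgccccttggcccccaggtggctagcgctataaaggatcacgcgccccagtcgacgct
The match began 91 bases before the start in CXCL8, 78 in CXCL1, 77 in CXCL2 and 186 in ICAM1, and NFKBIA held matches at 242 and 81. CXCL8, CXCL1 and CXCL2 carried the same letters, GGAATTTCC.

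LCN2 and SERPINA3, which encode secreted proteins of the acute-phase response, were among the 12 largest falls at a mean of at least 2 CPM. LCN2, a lipocalin that binds iron-loaded siderophores (chromosome 9, 128149071 to 128153455, plus strand), had 0.788 and 0.333 CPM at 12 h, against 3.94 and 4.53 CPM at 0 h. The groups did not overlap, and the log2 change was -2.93 ± 0.363 (adjusted p = 0.00187). SERPINA3, which encodes the protease inhibitor alpha-1-antichymotrypsin, had 3.77 and 2.55 CPM at 12 h, against 11.9 and 15.6 CPM at 0 h and fell by 2.13 ± 0.21 (adjusted p = 0.000552). APOE, the lipid carrier apolipoprotein E, had 3.73 and 4.52 CPM at 12 h, against 10.9 and 12.5 CPM at 0 h (-1.50 ± 0.252, adjusted p = 0.0127), and PTGES, which makes prostaglandin E2, had 1.88 and 1.27 CPM at 12 h, against 4.01 and 4.28 CPM at 0 h (-1.40 ± 0.29, adjusted p = 0.035). APOE and PTGES were picked after their values were seen. LCN2 and SERPINA3 kept their calls whichever library was left out, although LCN2 at 12 h rested on few reads and its change ran from -3.65 without 12 h replicate 1 to -2.42 without 12 h replicate 2. APOE kept its call without 0 h replicate 1 only (adjusted p = 0.0445; up to 0.269 otherwise) and PTGES in 0 refits (adjusted p = 0.0991 to 0.326).

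The cytochrome P450 genes CYP1B1 and CYP1A1 fell. CYP1B1, which oxidises estrogens and polycyclic compounds (chromosome 2, 38066973 to 38109902, minus strand), had 336 and 367 CPM at 12 h, against 1224 and 901 CPM at 0 h. The 0 h libraries differed from each other by more than the 12 h libraries but stood well above them (-1.59 ± 0.293, adjusted p = 0.02). CYP1A1, the classical target of the aryl hydrocarbon receptor, had 0.753 and 0.879 CPM at 12 h, against 4.66 and 4.02 CPM at 0 h and fell by 2.40 ± 0.28 (adjusted p = 0.00119). Among the 6 tested members of the list of aryl hydrocarbon receptor targets these 2 were lower and 0 higher, with a list median of -0.44. The share called lower over all genes tested was 1.13%. The receptor's repressor gene AHRR (0.11 ± 0.162, adjusted p = 0.755) and TIPARP (-0.31 ± 0.179, adjusted p = 0.394) did not pass. CYP1A1 missed without 12 h replicate 1 (adjusted p = 0.0568), and CYP1B1 whichever library was left out (adjusted p = 0.094 to 0.329).

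The genes of both ferritin subunits, which store iron in the cytosol, were lower. FTH1, the heavy chain with the oxidase centre (chromosome 11, 61959718 to 61967660, minus strand), had 62.3 and 60.3 CPM at 12 h, against 179 and 229.5 CPM at 0 h. The 12 h libraries were near each other and far below either 0 h library (-1.74 ± 0.2, adjusted p = 0.00119). FTL, the light chain, had 164 and 154 CPM at 12 h, against 329 and 327 CPM at 0 h and fell by 1.05 ± 0.197 (adjusted p = 0.0217). TFRC, the transferrin receptor that brings iron into the cell, had 588 and 538 CPM at 12 h, against 479 and 384 CPM at 0 h (0.38 ± 0.17, adjusted p = 0.266) and did not pass. Of 8 tested iron genes, 2 were lower, against 1.13% of all genes tested, and 0 higher, and their median was 0.19. FTH1 and FTL have many processed pseudogenes, so their counts depend on how shared reads were assigned. FTH1 missed without 12 h replicate 1 (adjusted p = 0.0509), and FTL whichever library was left out (adjusted p = 0.0921 to 0.268).

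Of the genes that hold back or drive the cell cycle, a few changed. CDKN1A encodes p21, which inhibits cyclin-dependent kinases and arrests cells in G1 (chromosome 6, 36676460 to 36687339, plus strand), and it had 17.5 and 19.2 CPM at 12 h, against 49.6 and 56.4 CPM at 0 h. Both 12 h libraries were below both 0 h libraries (-1.53 ± 0.178, adjusted p = 0.00119). GDF15, a stress cytokine and p53 target, had 80.6 and 84.3 CPM at 12 h, against 207 and 221 CPM at 0 h (-1.38 ± 0.318, adjusted p = 0.0497). Of 21 tested p53 targets these were the 2 called lower, against 1.13% of all genes tested, 0 were higher and the median was -0.072. Without 1 library the median ran from -0.10 to -0.0046, and with the 8 DMSO libraries alone 5 were lower and 2 higher. The shares of all genes in the 8-library fit were 7.26% and 6.74%. The p53 targets MDM2 (0.39 ± 0.214, adjusted p = 0.368) and GADD45A (-0.66 ± 0.164, adjusted p = 0.0645) did not pass. CDKN2A, whose product p16 also inhibits these kinases, had 0 reads in all 4 libraries. CDKN1A missed without 12 h replicate 1 (adjusted p = 0.0534), and GDF15 whichever library was left out (adjusted p = 0.142 to 0.4).

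Among 13 tested genes of the step from G1 into S, 1 was higher at 12 h, against 0.323% of all genes tested, and 0 lower. SKP2, the F-box protein that marks the inhibitor p27 for destruction, had 18.5 and 18.4 CPM at 12 h, against 11.4 and 7.56 CPM at 0 h and rose (0.97 ± 0.223, adjusted p = 0.0497). The cyclin genes CCNE1 (0.57 ± 0.143, adjusted p = 0.0645) and CCNE2 (0.89 ± 0.332, adjusted p = 0.192) and the factor E2F2 (1.02 ± 0.34, adjusted p = 0.149) did not pass. Their 12 h libraries lay above their 0 h libraries, as was the case for 4550 of all 15181 genes tested. Outside the list, DTL, the adaptor of the ubiquitin ligase that destroys CDT1 and p21 in S phase, had 54.9 and 49.1 CPM at 12 h, against 31.2 and 27.3 CPM at 0 h and rose (0.83 ± 0.143, adjusted p = 0.0153). CDCA7, an E2F-responsive nuclear protein gene, had 28.5 and 29.7 CPM at 12 h, against 15.8 and 14.1 CPM at 0 h (0.96 ± 0.183, adjusted p = 0.0218). The list median was 0.27, running from 0.105 to 0.36 when 1 library was left out, and 5 members were higher with the 8 DMSO libraries alone and 3 after correction for GC content and length. None of 25 DNA replication genes was called in the fit of all 14 libraries (median 0.093), against 4 higher and 1 lower with the 8 DMSO libraries alone, among them MCM6 at 0.37 ± 0.14 and PCNA at 0.36 ± 0.176. The fit of 8 libraries called 6.74% of all genes higher and 7.26% lower. SKP2, DTL and CDCA7 missed whichever library was left out, with adjusted p of 0.0604 to 0.531, 0.0604 to 0.308 and 0.0939 to 0.346.

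Among 28 tested genes of mitosis, 2 were lower at 12 h, against 1.13% of all genes tested, 0 were higher, and the median was -0.13. The fit of the 8 DMSO libraries alone called 7 lower, and that with correction for GC content and length 6. These fits called 7.26% and 3.73% of all genes lower. CCNB1, the cyclin that drives entry into mitosis, had 327 and 338 CPM at 12 h, against 502 and 552 CPM at 0 h and fell by 0.67 ± 0.112 (adjusted p = 0.0127). BIRC5, the survivin gene of the chromosomal passenger complex, had 142 and 147 CPM at 12 h, against 235 and 261 CPM at 0 h and fell by 0.78 ± 0.129 (adjusted p = 0.0127). Each had both 12 h libraries below both 0 h libraries. CKS1B and CKS2, small partners of cyclin-dependent kinases picked after their values were seen, were lower as well (-0.93 ± 0.168 and -0.91 ± 0.15, adjusted p = 0.0176 and 0.0127). UBE2C (-0.57 ± 0.138, adjusted p = 0.0602), PTTG1 (-0.55 ± 0.136, adjusted p = 0.0625), CDC25C (-0.54 ± 0.142, adjusted p = 0.0714) and MKI67 (-0.20 ± 0.154, adjusted p = 0.53) did not pass in the fit of all 14 libraries. CDC25C, for example, passed with the 8 DMSO libraries alone (adjusted p = 0.00785) and missed with the replicate block (adjusted p = 0.109). CCNB1, BIRC5 and CKS1B kept their calls without 0 h replicate 1 alone, with adjusted p up to 0.26, 0.26 and 0.283 in the other refits, and CKS2 in 0 refits (adjusted p = 0.0749 to 0.269).

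Immediate early genes, which growth signals switch on within minutes, and outputs of the EGFR and MAPK pathway were partly lower. SPRY4, a feedback inhibitor of receptor tyrosine kinases, had 57.9 and 54.4 CPM at 12 h, against 112 and 115 CPM at 0 h and fell by 1.02 ± 0.129 (adjusted p = 0.00222). The factor genes ATF3 (-1.13 ± 0.211, adjusted p = 0.0212), JUND (-1.004 ± 0.224, adjusted p = 0.0466) and SRF (-0.78 ± 0.168, adjusted p = 0.0396) were also lower. ATF3 had 2.91 and 3.61 CPM at 12 h, against 6.52 and 7.76 CPM at 0 h. In all, 4 of 29 tested immediate early genes were lower, against 1.13% of all genes tested, and 0 higher, with a median of -0.27. The fit of the 8 DMSO libraries alone called 8 lower, against 7.26% of all genes. AREG, the EGFR ligand amphiregulin, had 75.2 and 84.7 CPM at 12 h, against 145 and 145 CPM at 0 h and fell by 0.86 ± 0.147 (adjusted p = 0.0143). AREG and LIF were the 2 lower of 15 tested genes of EGFR ligands and MAPK output, against 1.13% of all genes, and 0 were higher. The median was -0.022, running from -0.14 to 0.074 when 1 library was left out. In the fit of the 8 DMSO libraries 2 were higher and 2 lower, against 6.74% and 7.26% of all genes. ERRFI1, an inhibitor of EGFR, and NAB2, a corepressor of EGR factors, were seen among the called genes and were lower too (-0.64 ± 0.123 and -1.23 ± 0.171, adjusted p = 0.0233 and 0.00477). MAFF, a small MAF factor, had 14.2 and 16.7 CPM at 12 h, against 44.1 and 55.6 CPM at 0 h and fell by 1.69 ± 0.185 (adjusted p = 0.00111). FOSL1 (-0.53 ± 0.189, adjusted p = 0.175), EGR1 (-0.92 ± 0.382, adjusted p = 0.237) and MYC (0.18 ± 0.15, adjusted p = 0.566) did not pass. MAFF missed without 12 h replicate 1 (adjusted p = 0.0524), SPRY4 without either 12 h library (adjusted p = 0.0534 and 0.0688) and NAB2 in each refit but that without 0 h replicate 1 (up to 0.12). ATF3, JUND, SRF, AREG and ERRFI1 missed whichever library was left out, with adjusted p of 0.052 to 0.318, 0.103 to 0.418, 0.0651 to 0.449, 0.0831 to 0.283 and 0.147 to 0.292.

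A few genes of sterol synthesis were lower at 12 h. HMGCS1, which makes HMG-CoA, had 25.2 and 22.4 CPM at 12 h, against 50.6 and 53.5 CPM at 0 h and fell by 1.13 ± 0.197 (adjusted p = 0.0158). MVD, the decarboxylase of the mevalonate pathway, had 17.5 and 16.1 CPM at 12 h, against 31.5 and 42.6 CPM at 0 h (-1.15 ± 0.205, adjusted p = 0.0176), and SQLE, the squalene epoxidase, had 153 and 139 CPM at 12 h, against 223 and 224 CPM at 0 h (-0.62 ± 0.131, adjusted p = 0.0382). In each of them both 12 h libraries were below both 0 h libraries. Of 18 tested sterol genes these 3 were lower, against 1.13% of all genes tested, and 0 higher, and the median was -0.41. With the 8 DMSO libraries alone 10 were lower, and after correction for GC content and length 8. The shares of all genes called lower were then 7.26% and 3.73%. HSD17B7 and TM7SF2, enzymes of the later steps that were picked after their values were seen, were lower (-0.98 ± 0.181 and -1.02 ± 0.235, adjusted p = 0.0209 and 0.0497). INSIG1 (-0.51 ± 0.178, adjusted p = 0.162) did not pass, nor did any of 11 fatty acid synthesis genes in the fit of all 14 libraries, such as SCD (-0.50 ± 0.196, adjusted p = 0.206) and FASN (-0.67 ± 0.212, adjusted p = 0.127). MVD and HSD17B7 kept their calls without 0 h replicate 1 only (up to 0.311 and 0.326 otherwise), and HMGCS1, SQLE and TM7SF2 in 0 refits (adjusted p = 0.0703 to 0.26, 0.143 to 0.342 and 0.12 to 0.433).

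At 24 h of DMSO, 356 genes (2.35%) differed from 12 h, 114 higher (0.751%) and 242 lower (1.59%). That comparison shares the 12 h libraries with the one above, so a gene that was low or high at 12 h by chance would move back in it, and the values are given side by side, as means ± SD (n = 2 per time). HMGCS1 averaged 76.8 ± 21.7 CPM at 24 h and 23.8 ± 2.03 CPM at 12 h, a log2 difference of 1.69 ± 0.199 (adjusted p = 0.00144), and had averaged 50.8 ± 12.8 CPM at 3 h. INSIG1 differed by 1.71 ± 0.182 (adjusted p = 0.00117), and 9 of the 18 sterol genes and 5 of the 11 fatty acid genes were higher at 24 h than at 12 h, with 0 lower. Of the 16 tested NF-kB and inflammation genes, 0 were called in either direction between 24 and 12 h in edgeR. CXCL8 averaged 4.71 ± 1.47 CPM at 24 h, CCL2 29.3 ± 1.51 CPM and NFKBIA 111 ± 2.48 CPM. SERPINA3 was an exception among the inflammatory genes outside the list, with 7.5 ± 0.217 CPM at 24 h and 3.16 ± 0.864 CPM at 12 h (1.25 ± 0.211, adjusted p = 0.0105). Between 24 and 12 h INSIG1 passed whichever of the 4 libraries was left out. HMGCS1 missed without 12 h replicate 2 (adjusted p = 0.0947) or 24 h replicate 1 (adjusted p = 0.0552), and SERPINA3 passed without 12 h replicate 1 only (up to 0.234 otherwise). Without 1 library the count of genes that differed between 24 and 12 h ran from 3 (without 24 h replicate 1) over 5 (12 h replicate 2) and 15 (12 h replicate 1) to 58 (24 h replicate 2).

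**Figure D2:**
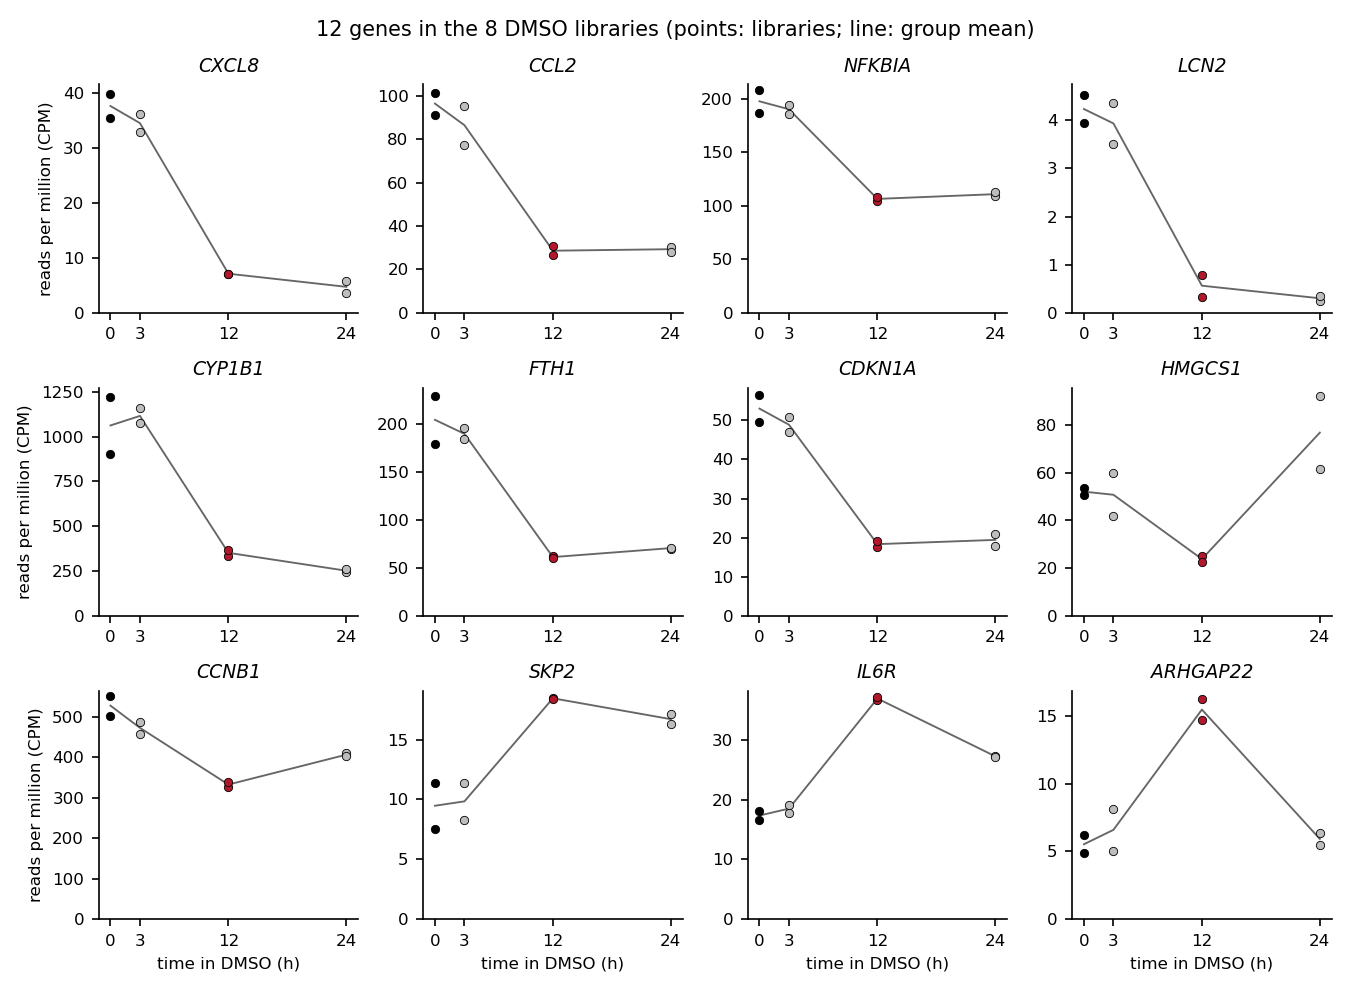
Level of 12 genes (CPM, linear axes from 0) in each DMSO library at 0, 3, 12 and 24 h; points are libraries, red at 12 h and black at 0 h, and lines join group means. CXCL8, CCL2, NFKBIA, LCN2, CYP1B1, FTH1 and CDKN1A are near their 0 h level at 3 h and low at 12 and 24 h, HMGCS1 is lowest at 12 h, and ARHGAP22 is highest at 12 h.

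At 3 h the vehicle cultures were close to the start. No gene (0%) was called in edgeR between 3 and 0 h, 215 had an unadjusted p below 0.05, and DESeq2 also called 0. CXCL8 averaged 34.6 ± 2.25 CPM at 3 h, against 37.7 ± 3 CPM at 0 h, and CDKN1A 48.9 ± 2.72 CPM, against 53.01 ± 4.81 CPM. FTH1 averaged 189.8 ± 8.31 CPM at 3 h and 204 ± 35.4 CPM at 0 h. The 16 tested NF-kB genes had a median change of -0.054 at 3 h.

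Of 19 tested members of the list of ATF4 stress genes, 18 had negative changes (median -0.21), of which 3 were called, and 1 was called higher. The shares of all genes tested were 1.13% lower and 0.323% higher. ATF4, the factor that stress kinases raise through translation, had 212 and 259 CPM at 12 h, against 439 and 468 CPM at 0 h and fell by 0.95 ± 0.149 (adjusted p = 0.0107). NUPR1, a stress-induced chromatin protein gene, had 12.1 and 13.8 CPM at 12 h, against 24.9 and 37.3 CPM at 0 h (-1.27 ± 0.221, adjusted p = 0.0158), and MTHFD2, the mitochondrial folate enzyme, had 259 and 282 CPM at 12 h, against 382 and 404 CPM at 0 h (-0.54 ± 0.123, adjusted p = 0.0484). VLDLR, a lipoprotein receptor, had 10.3 and 9.61 CPM at 12 h, against 5.3 and 5.07 CPM at 0 h and rose (0.94 ± 0.182, adjusted p = 0.0249). With the 8 DMSO libraries alone 5 list members were lower and 1 higher, and after correction for GC content and length 6 and 1. All genes gave 7.26% lower and 6.74% higher in the former fit, and 3.73% and 1.77% in the latter. ASS1, the argininosuccinate synthase that lets cells make arginine, had 1.95 and 2.46 CPM at 12 h, against 6.45 and 8.44 CPM at 0 h and fell by 1.75 ± 0.211 (adjusted p = 0.00149). ASS1 missed without 12 h replicate 1 (adjusted p = 0.067), ATF4 and NUPR1 kept their calls without 0 h replicate 1 only (up to 0.26 and 0.283 otherwise), and MTHFD2 and VLDLR missed whichever library was left out (adjusted p = 0.142 to 0.433 and 0.114 to 0.333).

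**Figure D3:**
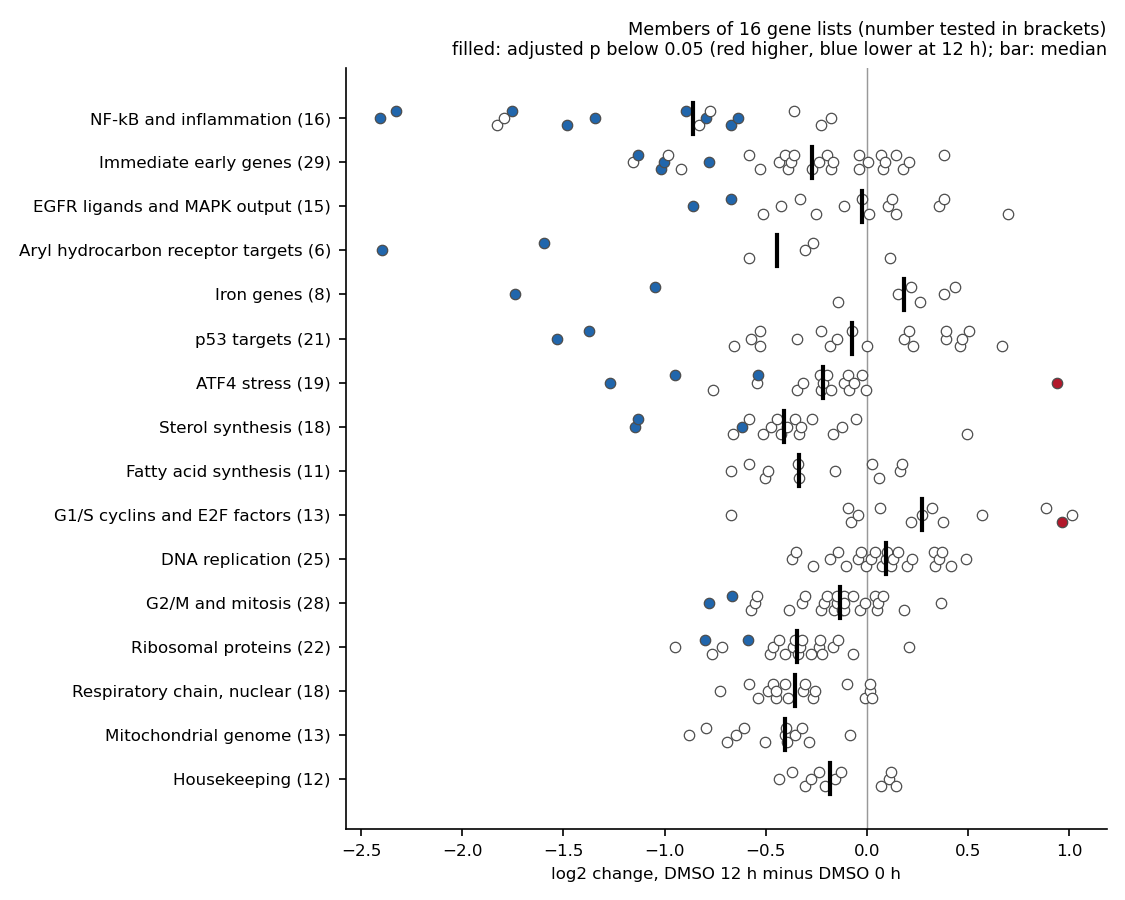
Log2 change of DMSO 12 h minus DMSO 0 h for the tested members of 16 gene lists (rows, number tested in brackets). Filled points are genes called in edgeR, blue lower and red higher at 12 h, and black bars are list medians. The NF-kB list lies wholly below 0 with 9 filled points, while the list of G1/S cyclins has a median of 0.27 and the 13 genes of the mitochondrial genome a median of -0.40 with none called.

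Part of the genes for ribosomal proteins and for the respiratory chain, whose transcripts are short, were lower at 12 h. RPL37 had 529.6 and 665 CPM at 12 h, against 1490.4 and 1596 CPM at 0 h and fell by 1.37 ± 0.182 (adjusted p = 0.00328), with RPL38 (-1.30 ± 0.216), RPL39 (-1.23 ± 0.215) and RPS27 (-1.25 ± 0.236) close behind (adjusted p = 0.0127, 0.0158 and 0.0218). Of a list of 22 ribosomal protein genes 2 were lower, RPL32 (-0.80 ± 0.139, adjusted p = 0.0158) and RPL7 (-0.59 ± 0.131, adjusted p = 0.0466), and 0 higher. Of all 80 ribosomal protein genes found by symbol after the data had been seen, 15 were lower and 0 higher, with a median of -0.44. The share called lower over all genes tested was 1.13%. ATP5I, a subunit of ATP synthase, had 23.8 and 23.9 CPM at 12 h, against 53.8 and 58.0 CPM at 0 h (-1.23 ± 0.255, adjusted p = 0.035). COX6A1 of complex IV (-1.20 ± 0.229, adjusted p = 0.0221) and NDUFB1 of complex I (-1.10 ± 0.232, adjusted p = 0.0375) were also lower. Of 73 nuclear genes of the respiratory chain and ATP synthase, again gathered by symbol, 10 were lower and 0 higher (median -0.45), although a shorter list of 18 had none called in the fit of all 14 libraries (median -0.35). With the 8 DMSO libraries alone 45 of the 80 ribosomal protein genes were lower and 0 higher. Of the 73 respiratory genes 39 were lower and 1 higher, and 9 of the shorter list of 18 were lower. That fit called 7.26% of all genes lower and 6.74% higher. Without 1 library 0 to 5 of the 80 ribosomal protein genes were lower. Each of these genes lost its call without at least 1 library: RPL37 missed without 12 h replicate 1 (adjusted p = 0.12) or 0 h replicate 2 (adjusted p = 0.052), and RPL38 and RPL39 kept theirs without 0 h replicate 1 only. RPS27, RPL32, RPL7, ATP5I, COX6A1 and NDUFB1 missed whichever library was left out, with adjusted p up to 0.351, 0.269, 0.449, 0.365, 0.328 and 0.404. Ribosomal protein genes share reads with many pseudogenes.

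Genes called lower had a median transcript length of 1774 nt and those called higher 5166 nt, against 3084 nt over all genes tested. In the fifth of genes with the shortest transcripts the median change was -0.22, with 77 genes lower and 2 higher. In the fifth with the longest it was 0.18, with 10 lower and 20 higher. By GC content, the fifth lowest in GC had a median of 0.197 and the fifth highest in GC one of -0.15. After correction for both properties the 5 medians by length lay between -0.038 and -0.0068. With the correction 29 of the 80 ribosomal protein genes (median -0.35) and 18 of the 73 respiratory genes (median -0.35) were lower. That was more than without it, although both medians lay nearer to 0. The share of all genes called lower was 3.73% with it and 1.13% without. The part of length or of RNA quality in these results was not tested. Reads of the mitochondrial genome took 4.57% and 4.53% of the libraries at 12 h, against 5.61% and 6.05% at 0 h. All 13 of its protein genes had negative changes (median -0.40), such as MT-ND5 (-0.69 ± 0.17, adjusted p = 0.0625), but none was called in the edgeR fit of all 14 libraries. With the 8 DMSO libraries alone 11 of them were lower, and with the correction 1, against 7.26% and 3.73% of all genes. Between 3 and 0 h the median of these 13 genes was -0.40 as well, again with 0 called.

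**Figure D4:**
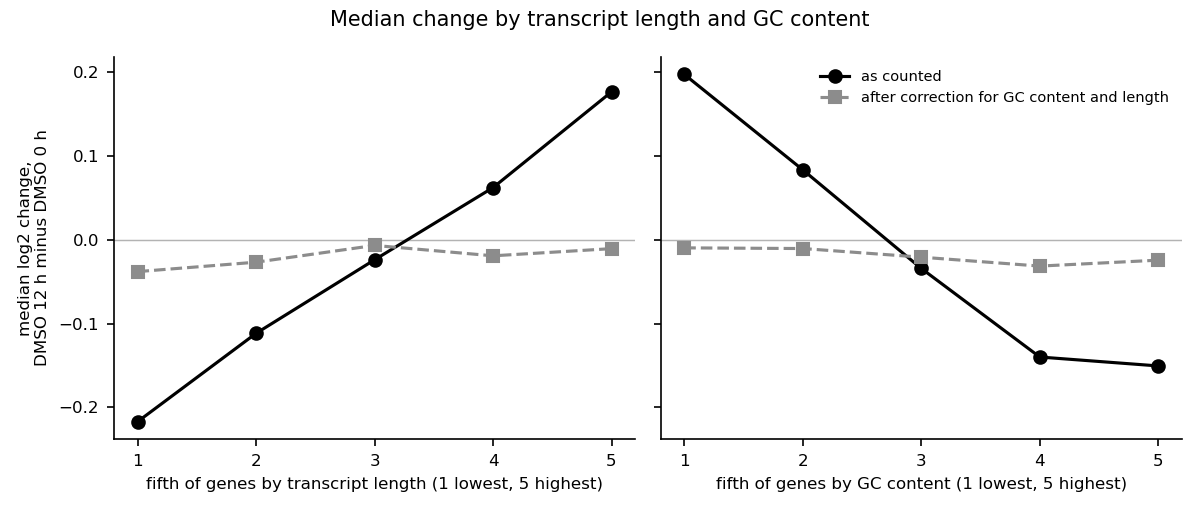
Median log2 change of DMSO 12 h minus DMSO 0 h in 5 equal bins of the tested genes by transcript length (left) and GC content (right), as counted (solid) and after correction of each library for both (dashed). As counted, the median goes up with length from -0.22 to 0.18 and down with GC content from 0.197 to -0.15; after correction all medians lie between -0.038 and -0.0068.

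The genes that rose are of several kinds and were led by signalling and membrane genes. ARHGAP22, which switches off the GTPase Rac (chromosome 10, 48446034 to 48656265, minus strand), had 14.7 and 16.3 CPM at 12 h, against 4.87 and 6.2 CPM at 0 h. The 12 h libraries lay far above both 0 h libraries (1.48 ± 0.219, adjusted p = 0.00686), and at 24 h the mean was 5.93 ± 0.648 CPM (SD). CMTM8 had 13.8 and 15.1 CPM at 12 h, against 7.2 and 5.5 CPM at 0 h (1.19 ± 0.197, adjusted p = 0.0127). IL6R, the receptor of interleukin-6, had 36.7 and 37.2 CPM at 12 h, against 16.5 and 18.2 CPM at 0 h and rose (1.09 ± 0.175, adjusted p = 0.0111). MTMR4, a phosphatase of endosomal phosphoinositides, rose by 1.08 ± 0.191 (adjusted p = 0.0159). FLRT2, a cell surface protein with leucine-rich repeats, rose by 1.05 ± 0.219 (adjusted p = 0.0356), ZNF100 by 1.19 ± 0.269 (adjusted p = 0.0478) and ANKRD18B by 1.04 ± 0.231 (adjusted p = 0.0466). ZNF100 and ANKRD18B belong to families of close paralogs, so their counts are uncertain. The transcription factor NFIA had 34.8 and 35.2 CPM at 12 h, against 18.02 and 17.5 CPM at 0 h (0.98 ± 0.22, adjusted p = 0.0467). PLEKHA2, a phosphoinositide-binding adaptor gene (1.02 ± 0.189, adjusted p = 0.0212), and SMPDL3A, a phosphodiesterase gene of the sphingomyelinase family (0.98 ± 0.219, adjusted p = 0.047), completed the 12 largest rises at a mean of at least 2 CPM with SKP2 and CDCA7. Among these 12 genes 9 lost the call whichever library was left out. The exceptions were CMTM8 and FLRT2, called without 0 h replicate 1 (adjusted p = 0.0408 and 0.0445), and MTMR4, called without 0 h replicate 1 (adjusted p = 0.0445) or 12 h replicate 2 (adjusted p = 0.049). FLRT2 also missed after correction for GC content and length (0.71, adjusted p = 0.0849).

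Matrix and growth factor genes were among the smaller rises, and those given here were named after their values were seen. MMP1, an interstitial collagenase, had 189 and 253 CPM at 12 h, against 134 and 128 CPM at 0 h (0.75 ± 0.157, adjusted p = 0.0351), and COL27A1, a fibrillar collagen, had 13.2 and 12.9 CPM at 12 h, against 7.7 and 7.22 CPM at 0 h (0.81 ± 0.173, adjusted p = 0.0396). Both genes had both 12 h libraries above both 0 h libraries. NRG2, a neuregulin ligand of ERBB receptors, had 27.0 and 26.4 CPM at 12 h, against 14.9 and 14.3 CPM at 0 h (0.87 ± 0.132, adjusted p = 0.00858), and the homeobox gene HOXB4 had 53.8 and 54.2 CPM at 12 h, against 29.1 and 31.1 CPM at 0 h (0.84 ± 0.137, adjusted p = 0.012). ATP6V1A and ATP6V1C2, subunits of the proton pump that acidifies lysosomes, rose by 0.78 ± 0.161 and 0.61 ± 0.138 (adjusted p = 0.035 and 0.0476). On the deposited RPKM the rise of ATP6V1C2 was not seen. In limma on log2(RPKM + 1) it stood at 0.014 ± 0.0322 (adjusted p = 0.858), and ATP6V1A at 0.80 ± 0.17 (adjusted p = 0.0515). Several of these genes were lower at 24 h than at 12 h: MMP1 differed by -0.72 ± 0.157, COL27A1 by -0.91 ± 0.174, CORO2B by -1.44 ± 0.203 and MARCH4 by -1.62 ± 0.188 (adjusted p = 0.0331, 0.019, 0.0057 and 0.00144). That comparison shares the 12 h libraries, and these genes were picked as high in them, so the choice favours a move back. The differences of CORO2B and MARCH4 missed without 12 h replicate 2 (adjusted p = 0.116 and 0.0704) or 24 h replicate 1 (adjusted p = 0.186 and 0.0728), and those of MMP1 and COL27A1 passed in 0 refits (adjusted p up to 0.44 and 0.358). CORO2B, an actin-binding coronin, had 21.8 and 25.7 CPM at 12 h, against 12.5 and 12.5 CPM at 0 h, and MARCH4, a membrane ubiquitin ligase, had 32.7 and 40.7 CPM at 12 h, against 20.7 and 20.7 CPM at 0 h. Between 12 and 0 h all 8 of these genes missed whichever library was left out, with adjusted p from 0.0554 (NRG2) up to 0.488 (ATP6V1C2).

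Genes of cell shape and the mesenchymal state fell in a few cases. S100A4, a calcium-binding protein of motile cells, had 17.7 and 19.7 CPM at 12 h, against 36.1 and 44.8 CPM at 0 h and fell by 1.11 ± 0.219 (adjusted p = 0.0272). SNAI1, a repressor of epithelial genes, was weakly expressed, at 1.61 and 1.58 CPM at 12 h, against 3.76 and 3.14 CPM at 0 h (-1.11 ± 0.248, adjusted p = 0.0466). These were the 2 lower and 0 higher of 14 tested mesenchymal genes, against 1.13% and 0.323% of all genes tested. The list median was 0.081, running from 0.033 to 0.12 when 1 library was left out. The fit of the 8 DMSO libraries called 3 lower and 2 higher, against 7.26% and 6.74% of all genes. ANKRD1, a target of YAP, had 12.4 and 16.2 CPM at 12 h, against 28.0 and 29.3 CPM at 0 h and fell by 1.0 ± 0.207 (adjusted p = 0.035), the 1 call among 19 TGF-beta and YAP targets, of which 5 were lower and 4 higher with the 8 DMSO libraries alone. COL1A1, a collagen listed here as a fibroblast marker, had 10.6 and 8.15 CPM at 12 h, against 18.8 and 19.8 CPM at 0 h and fell by 1.04 ± 0.159 (adjusted p = 0.00858), and was 1 of 2 tested fibroblast markers. The other, COL3A1, had 0.514 and 0.212 CPM at 12 h, against 0.179 and 0.312 CPM at 0 h (0.51 ± 0.953, adjusted p = 0.819). The 7 further fibroblast markers with an entry had at most 5 reads in any of the 4 libraries. MCOLN1, a lysosomal calcium channel, fell by 1.04 ± 0.204 (adjusted p = 0.0272) as the 1 call among 17 autophagy and lysosome genes, of which 4 were lower and 1 higher with the 8 DMSO libraries alone. COL1A1 kept its call without 0 h replicate 1 only (up to 0.137 otherwise), and S100A4, SNAI1, ANKRD1 and MCOLN1 missed whichever library was left out (adjusted p = 0.0554 to 0.348, 0.165 to 0.365, 0.117 to 0.4 and 0.0929 to 0.283).

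Among transcripts annotated as noncoding, 6 of 1107 tested antisense, 4 of 706 long intergenic and 5 of 180 processed transcripts were lower. Of the antisense transcripts 1 was higher. In either direction 0.632%, 0.567% and 2.78% of these types were called, against 1.46% of all genes tested. H19, an imprinted RNA of growth control, had 16.6 and 16.7 CPM at 12 h, against 29.4 and 37.6 CPM at 0 h and fell by 1.005 ± 0.191 (adjusted p = 0.0221). SNHG5, a host of small nucleolar RNAs, had 86.8 and 105 CPM at 12 h, against 188 and 195 CPM at 0 h (-0.996 ± 0.163, adjusted p = 0.0126). Both stood lower in each 12 h library. DLGAP1-AS2 (-1.02 ± 0.149, adjusted p = 0.0064), LINC00869 (-1.22 ± 0.234, adjusted p = 0.0233) and BMS1P20 (-0.90 ± 0.175, adjusted p = 0.025) completed the 5 with the smallest p. SCARNA9, a small Cajal body RNA that guides modification of spliceosomal RNA, had 4.28 and 3.58 CPM at 12 h, against 12.7 and 11.7 CPM at 0 h (-1.63 ± 0.352, adjusted p = 0.0396). Lists of nuclear RNAs (9 tested) and stress RNAs (6 tested) gave 2 further calls, 1 in each list. These were ZFAS1 (-0.94 ± 0.187, adjusted p = 0.0284) and TP53TG1 (-1.54 ± 0.329, adjusted p = 0.0382). The share called lower over all genes tested was 1.13%. Since the strand setting of the counting is not given, reads of antisense genes and of RNAs within host genes cannot be separated from those of their neighbours. H19 and DLGAP1-AS2 kept their calls without 0 h replicate 1 only (up to 0.346 and 0.108 otherwise), and the other 6 in 0 refits.

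Of the 46 gene lists, 45 had a tested member, 19 had at least 1 member lower at 12 h and 3 at least 1 higher. In 24 tested lists no member was called in the edgeR fit of all 14 libraries, among them hypoxia (18 tested, median 0.23), glycolysis (19, median -0.15), heat shock (13, median -0.033), NRF2 targets (14, median -0.24) and clock genes (14, median 0.27). When the spread came from the 8 DMSO libraries, 4 of these 24 lists still had no member called. That fit called 14% of all genes tested, 6.74% higher and 7.26% lower. Whether the calls in a list exceed that share was not tested. Hypoxia had 5 higher and 2 lower, clock genes 5 higher and 0 lower, and glycolysis 1 higher and 2 lower. NRF2 targets had 2 lower and heat shock 1 lower. With the correction for GC content and length, clock genes had 4 higher and hypoxia 2 higher and 2 lower. That correction gave 1.77% of all genes higher and 3.73% lower. Without 1 library the medians ran from 0.067 to 0.27 for hypoxia, from 0.19 to 0.42 for clock genes, from -0.20 to -0.098 for glycolysis and from -0.097 to 0.029 for heat shock. The heme oxygenase gene HMOX1 had 8.22 and 9.4 CPM at 12 h, against 14.9 and 17.7 CPM at 0 h (-0.89 ± 0.248, adjusted p = 0.0888), and GAPDH had 1762 and 1857 CPM at 12 h, against 2074 and 2302 CPM at 0 h (-0.27 ± 0.154, adjusted p = 0.38). NR1D2, a clock repressor, had 48.2 and 41.8 CPM at 12 h, against 26.5 and 16.6 CPM at 0 h (1.06 ± 0.308, adjusted p = 0.101), short of the threshold. Both 12 h libraries lay above both 0 h libraries, as was the case for 4550 of all 15181 genes tested.

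The calls differed in how far they depended on single libraries. Of the 12 largest rises at a mean of at least 2 CPM, 9 passed in 0 of the 4 refits that left out 1 library, 2 in 1 and 1 in 2. Of the 12 largest falls with the same limit, 4 passed in all 4 refits, 5 in 3 and 3 in 0. Those 4 were LCN2, CX3CL1, SERPINA3 and CCL2. Over all 221 called genes, 45 of the 49 higher and 119 of the 172 lower passed in 0 refits. The total was 4 without 12 h replicate 1, 14 without 12 h replicate 2, 59 without 0 h replicate 1 and 13 without 0 h replicate 2, and in these refits the lone library of a group is assumed to vary like the other groups.

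**Figure D5:**
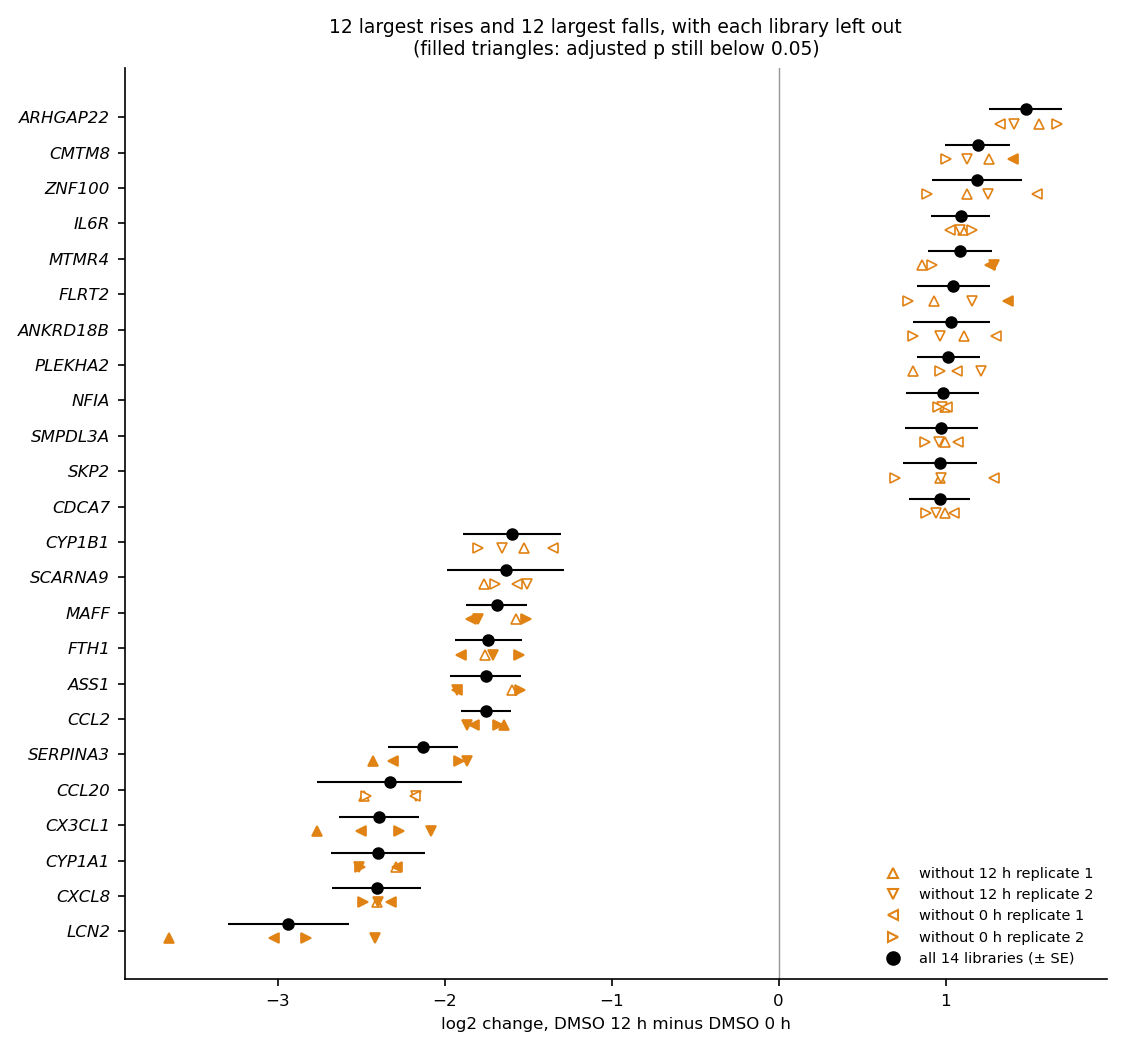
Log2 change of DMSO 12 h minus DMSO 0 h for the 12 largest rises and 12 largest falls among called genes with a mean of at least 2 CPM. Black points with bars are the fit of all 14 libraries ± SE, and triangles the refits without 1 library, filled where the adjusted p stayed below 0.05. No change crosses 0 in any refit, but the genes were chosen for having no overlap between groups, which all but fixes this.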

How the data were processed

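Per the labels' protocols, PANC-1 cells were lysed in Trizol and the RNA libraries were read from both ends on an Illumina instrument. The deposited counts are whole reads per gene in each of the 14 libraries (28120 genes), and the deposited RPKM values are reads scaled to gene length and to depth (25447 genes). TopHat2, edgeR and GRCh38 are named, without role or version, per the submitters' processing notes. The sources used here do not give the counting tool, annotation, strand setting or the lengths used for RPKM.

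Counts were filtered with filterByExpr, scaled by TMM and fitted over all 7 groups with edgeR 4.0.16 (R 4.3.3; quasi-likelihood F test, 7 residual degrees of freedom, Benjamini-Hochberg adjustment over 15181 genes). The biological coefficient of variation was 15.1%. Contrasts were 12 h minus 0 h, 3 h minus 0 h and 24 h minus 12 h, all in DMSO. Alternatives used DESeq2 1.42.0, limma 3.58.1 on log2(RPKM + 1) or log2(RPKM + 0.1), other filters, fewer libraries, a block for replicate number, and offsets for GC content and length (splines with 5 degrees of freedom on GENCODE 29 transcripts, known for 99.3% of genes). The fit was tested on simulated counts. Depth ran from 26403984 to 35213154 reads per library, and floors of 3 reads cover counting error only.

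Genes were named by a rule: the 12 largest rises and 12 largest falls among called genes with a mean of at least 2 CPM and no overlap between groups, the members of 46 gene lists, and the 5 called noncoding genes with the smallest p. Others are said to be picked after their values were seen, and a few genes that the rule names are not reported here. The comparison, lists and rule were chosen with earlier results of these data known.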

Additional observations from a re-analysis of the deposited data

How the results depend on the processing

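The 221 genes called between 12 and 0 h became 679 with DESeq2, 849 without the filter on low counts, 142 with limma on log2(RPKM + 0.1), 829 with the correction for GC content and length, 668 with that correction and the replicate block, 2068 in a fit of the 8 DMSO libraries alone and 2850 in a fit of the 4 libraries alone, and 89 of the 221 changed at least 2-fold. Leaving out 1 library gave 4 to 59. Between 3 and 0 h, 11 genes passed without the filter and 1 with limma on log2(RPKM + 0.1). The 356 genes called between 24 and 12 h became 827 with DESeq2, 651 without the filter, 906 with the correction, 1912 with the 8 DMSO libraries, 3947 with the 4 libraries and 92 with a minimum of 2-fold, and 3 to 58 when 1 library was left out. Fits on fewer libraries drop the proanthocyanidin groups from the estimate of the spread, and refits without 1 library leave a group with 1 sample; the cause of the other shifts was not tested.

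Libraries with the same replicate number did not deviate together: over 21 pairs of groups the correlation lay between -0.18 and 0.21, over 0.1 in 2 pairs. The numbers thus gave no steady sign of pairing. Weak correlations cannot show that the libraries were unpaired, and the labels do not say. With the replicate block, 113 genes were called between 12 and 0 h and 198 between 24 and 12 h, and 66 of the 98 called genes named in the text passed.

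Of these 98 genes, all kept their call without the filter and with the 8 DMSO libraries alone, and so did the 96 to which DESeq2 gave an adjusted p (ADAM12 and RAB7B got none). These 3 fits called more genes than the main fit. On the deposited RPKM fewer passed in limma: 75 kept their call and 23 lost it with log2(RPKM + 1). With log2(RPKM + 0.1) 62 kept it and 36 lost it. None of the 98 changed direction under any alternative run. In every called gene the groups did not overlap, so leaving out 1 library could hardly change a direction. Among genes examined in the same way that were not called, 24 passed with the 8 DMSO libraries alone. The correction for GC content and length gave 18 such genes, DESeq2 13 and the replicate block 0. KRT8, uncalled, changed sign with the correction (0.069), with correction and replicate block (0.070), and without 0 h replicate 2 (0.012) or 12 h replicate 1 (0.020); without 1 library it ran from -0.14 to 0.020. CD68, uncalled, was at -0.0073 without the filter and ran from -0.14 to 0.17 without 1 library, and COL3A1, uncalled, from -0.22 to 1.04. With 3 reads as the limit that a count of 0 allows, levels under about 0.107 CPM could not be told from 0.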

Other observations

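Some outputs of growth factor signalling were lower at 24 h than at 12 h. Of the 29 tested immediate early genes, 10 were lower, against 1.59% of all genes tested, and 0 higher in that comparison, which shares the 12 h libraries with the comparison of 12 and 0 h. MYC, the growth-promoting factor, averaged 34.5 ± 0.435 CPM at 24 h and 54.7 ± 6.79 CPM at 12 h (SD, n = 2 each), a log2 difference of -0.66 ± 0.151 (adjusted p = 0.0374). FOSL1, an AP-1 subunit, averaged 153 ± 43.9 CPM at 24 h and 273 ± 41.5 CPM at 12 h (-0.84 ± 0.19, adjusted p = 0.0368). SPRY4 and ANKRD1, which were already lower at 12 h than at 0 h, differed between 24 and 12 h by -0.69 ± 0.129 and -1.21 ± 0.216 (adjusted p = 0.0178 and 0.0145). FOSL1 and ANKRD1 passed without 24 h replicate 2 only, and MYC and SPRY4 missed whichever library was left out, with adjusted p up to 0.444 (FOSL1), 0.33 (ANKRD1), 0.392 (MYC) and 0.358 (SPRY4). With the replicate block, MYC and FOSL1 missed (adjusted p = 0.0603 and 0.0574).

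A few called genes with a mean under 2 CPM had larger changes than those named by rank in the report, and they were picked here after their values were seen. The small GTPase gene RAB7B had 0.0342 and 0.121 CPM at 12 h, against 0.716 and 0.878 CPM at 0 h and was called lower (adjusted p = 0.047). ADAM12, a membrane metalloprotease, had 0.582 and 0.636 CPM at 12 h, against 0.0716 and 0.0567 CPM at 0 h and was called higher (adjusted p = 0.0466). The pseudogene UBBP4 had 1.03 and 1.49 CPM at 12 h, against 0.143 and 0.283 CPM at 0 h (2.50 ± 0.492, adjusted p = 0.0272), and TRIM9, a ubiquitin ligase, had 1.3 and 1.73 CPM at 12 h, against 0.358 and 0.312 CPM at 0 h (2.17 ± 0.372, adjusted p = 0.0143). The groups did not overlap in any of the 4, and each value rests on few reads, for which RAB7B and ADAM12 are given no fold change.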
